A study of Mus musculus with 16 samples.

Results

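The genes described here are 10 components of the interleukin-6 (IL-6) family signalling route, out of 54347 genes listed in the count table. They were taken by symbol, and all 10 were found. The list of symbols was chosen with earlier results of these data known. They comprise the cytokines Il6, Lif and Il11, the receptor chains Il6ra, Il6st, Lifr and Osmr, the kinase Jak1, the transcription factor Stat3 and the inhibitor Socs3. The question was how this route is expressed in cultured mouse brown adipocytes, how it changed with β-adrenergic stimulation, and whether activation of the long noncoding RNA gene Gm15551 altered it.

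Cytokines of this family bind a receptor chain of their own, such as the IL-6 receptor, the LIF receptor or the oncostatin M receptor, which pairs with or recruits the shared signal transducer gp130, the product of Il6st. The bound JAK kinases phosphorylate STAT3, which enters the nucleus and activates genes that include Socs3, whose product shuts the receptor complex down again. In adipose tissue IL-6 is known as a cytokine released by the fat cells themselves as well as by resident immune cells, and β-adrenergic agonists are known to raise its output.

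All 16 libraries came from wt1-SAM cells, 1 immortalized line of brown preadipocytes. It holds the CRISPRa SAM components, an inactive Cas9 with recruited activators that switch on the gene to which a guide RNA (sgRNA) brings them. Every culture was induced with rosiglitazone, T3, dexamethasone, insulin, indomethacine and IBMX, transfected on day 4 of differentiation with 250 ng of plasmid and harvested on day 7. The plasmid was either the empty sgRNA vector or the vectors with guides against Gm15551 (pSgRNA-MS2-2+7), and for the last 24 h the cells were left unstimulated (0 µM) or received 1 µM isoproterenol, a β-adrenergic agonist. Each of the 4 groups, called empty_ctrl, empty_iso, sgRNA_ctrl and sgRNA_iso, held 4 libraries with the replicate numbers 3, 4, 5 and 6. The replicate numbers pair libraries across groups. No label says that they stand for separately derived cells, so the p-values measure the spread between these cultures of 1 line.

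Total counts were between 9053521 and 16546187 per library, and a single ribosomal RNA gene took 11.7% to 51.8% of them, and in 8 of 8 pairs of plasmids the empty vector library had the higher share. Levels are given as CPM, the counts relative to the TMM-scaled library size. Gm15551 itself was 2.37 ± 0.39 (SE) higher on the log2 scale in sgRNA cells (edgeR's quasi-likelihood test, adjusted p = 0.0989, and 0.00055 in a fit blocked on replicate number). This rests on few reads, with 3 to 18 counts per library in empty_ctrl, 0 to 5 in empty_iso, 19 to 56 in sgRNA_ctrl and 13 to 26 in sgRNA_iso. Gm15551 also fell with isoproterenol, by −1.69 ± 0.39 (adjusted p = 0.0214 in the same test). Ucp1, the uncoupling protein of thermogenic fat, rose with isoproterenol by 4.03 ± 0.37 (adjusted p = 7.36e-06). Of 10 adipocyte markers, Fabp4 (8210 to 19500 CPM), Adipoq and Plin1 were abundant, whereas Ucp1 stayed between 0 and 15.5 CPM and Dio2 was at 0 in 15 of 16 libraries.

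Because the design acts through guides and Il6 RNA rose with the stimulus, 3 sequences are shown. The first is the stretch of 250 bases in front of Il6 (RefSeq, GRCm38.p6, chr5:30012864-30013113, + strand, no annotated exon), 5′ to 3′, with letters that match 1 of the 6 searched motifs in capitals. The others are the designed guides numbered 2 and 7, which give the plasmids their name.

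Il6 upstream: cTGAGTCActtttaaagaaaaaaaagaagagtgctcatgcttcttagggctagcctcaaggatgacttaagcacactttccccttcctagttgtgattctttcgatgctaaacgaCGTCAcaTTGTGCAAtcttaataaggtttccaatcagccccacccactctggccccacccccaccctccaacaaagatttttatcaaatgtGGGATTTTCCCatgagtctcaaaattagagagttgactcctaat
Gm15551-2: cacttccagttatataagcg
Gm15551-7: agggttttttgctaaaacgg

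The capitals in front of Il6 are, from left to right, an AP-1 match (TGANTCA) that begins 249 bases before the start, the core of a cAMP response element (CRE core, TGACG, here on the opposite strand) at 135 bases, a C/EBP match (TTGCNNAA, opposite strand) at 128 bases and overlapping NF-κB matches (GGGA and CC with any 4 bases between, 1 on each strand) at 44 and 43 bases. Among 32851 RefSeq windows of 300 bases around gene starts, 7.81% held the AP-1 letters, 20.8% the CRE core, 10.8% the C/EBP letters and 20.7% the NF-κB letters on either strand. The full CRE (TGACGTCA, 1.79% of windows) was matched by Jak1 alone among the members. The STAT letters (TTCNNNGAA, 8.3% of windows) were matched by Socs3 alone, 154 bases before its RefSeq start. The Socs3 window (chr11:117969317-117969616) lies inside the annotated gene (chr11:117966079-117970047, − strand), so this match is not upstream of that gene. Osmr, whose window lies within an annotated exon and is not printed, held 1 AP-1 and 1 NF-κB match. These matches describe letters only. Guide 2 lies on chr3:126669053-126669072 (GRCm38.p6) in front of Gm15551 (chr3:126667329-126669044, − strand) and is followed there by TGG, and guide 7 had no match in the Gm15551 window.

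All 10 genes are annotated as protein coding, and their levels covered a wide range. Per kilobase of merged exons, the mean over the 16 libraries was highest for Jak1 (9.27 CPM per kb), followed by Il6st (6.74), Stat3 (4.74), Osmr (3.36), Socs3 (1.97), Lifr (1.76), Il6 (1.23) and Il6ra (1.07). Il11 (0.227 CPM per kb) and Lif (0.0432) came last. Neighbours in this order overlapped in their range over libraries, except that Il6ra at 0.626 to 1.6 CPM per kb lay wholly above Il11 at 0.05 to 0.427. Jak1, Il6st, Stat3 and Osmr kept ranks 1, 2, 3 and 4 in every group. Il6 held rank 8 in empty_ctrl, sgRNA_ctrl and sgRNA_iso (0.579, 0.374 and 1.11 CPM per kb) and rank 5 in empty_iso (2.88 CPM per kb).

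**Figure D1:**
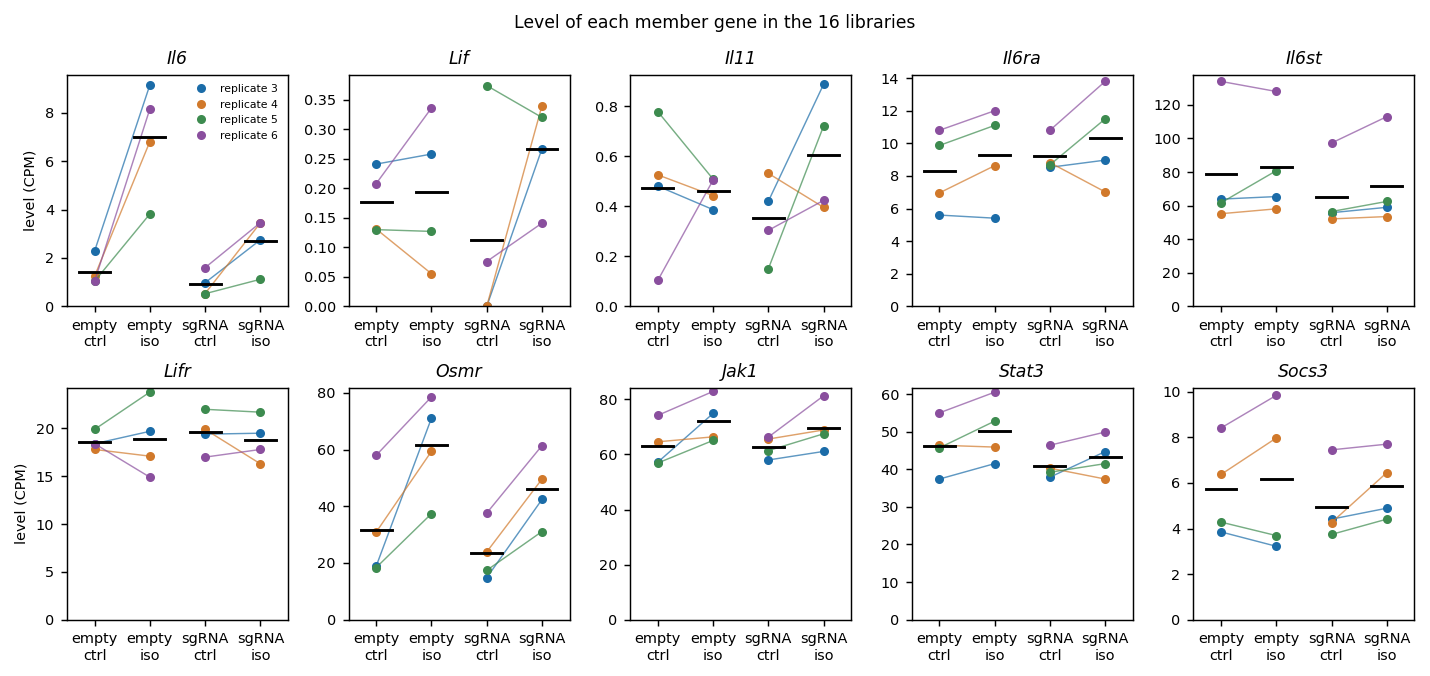
Level of each of the 10 genes in CPM (y axis, from 0) in the 4 groups (x axis). Points are single libraries coloured by replicate number, thin lines join the unstimulated and stimulated library of a replicate within a plasmid arm, and black bars are group means (n = 4). Il6 and Osmr go up along every line, and replicate 6 stands above the others for Il6st.

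The data showed a rise of the cytokine Il6 and of the receptor Osmr with isoproterenol, and no call for the other tested members without the replicate block. Of the 10 genes, 8 passed the filter on low counts and were tested. Il6 and Osmr were called at an adjusted p under 0.05, both higher, against a background of 4.49% of the 13150 tested genes called in either direction, 2.06% higher and 2.43% lower. With the replicate block Jak1 joined them, which made 3 called members, all higher, where the background was 21.3% of genes, 10.9% higher and 10.4% lower.

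Il6 (ENSMUSG00000025746, GRCm38 chr5:30013114-30019981, + strand) encodes the cytokine that names the family. In the empty_ctrl libraries of replicates 3, 4, 5 and 6 its level was 2.29, 1.25, 1.04 and 1.04 CPM, and in the empty_iso libraries 9.15, 6.81, 3.82 and 8.16 CPM. In sgRNA_ctrl it was 0.979, 0.532, 0.524 and 1.6 CPM, and in sgRNA_iso 2.75, 3.45, 1.12 and 3.46 CPM. The stimulated library was higher in 8 of 8 pairs. The stimulated and unstimulated groups did not overlap in empty vector cells, but they did in sgRNA cells, where the unstimulated library of replicate 6 (1.6 CPM) lay above the stimulated library of replicate 5 (1.12 CPM).

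Averaged over both plasmids, Il6 rose with isoproterenol by 1.92 ± 0.30 (SE) on the log2 scale, a 3.78-fold rise (95% interval of the log2 value 1.28 to 2.56, adjusted p = 0.00145). With the replicate block the rise was 1.93 ± 0.20 (adjusted p = 5.37e-06). These estimates rest on few reads, with 7 to 123 counts per library. The number of libraries past the filter's minimum was 3 in empty_ctrl, 4 in empty_iso, 2 in sgRNA_ctrl and 4 in sgRNA_iso, where 4 in all were needed. Within the arms the rise was 2.27 ± 0.42 in empty vector cells (adjusted p = 0.0143) and 1.57 ± 0.43 in sgRNA cells (adjusted p = 0.153, and 0.00308 with the block). The within-pair folds ranged from 2.14 (sgRNA cells of replicate 5) to 7.86 (empty vector cells of replicate 6).

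The other cytokines of the list were near the detection limit. Lif, leukemia inhibitory factor, had 0 to 6 counts per library, and 2 of the 4 sgRNA_ctrl libraries were at 0, which at 3 counts allows up to 0.21 and 0.228 CPM there. Il11, a cytokine that signals through its own receptor and gp130, had 1 to 10 counts per library. Neither passed the filter, and neither level differed detectably between groups at this depth. Fitted without a filter, the isoproterenol effect was 0.59 ± 0.63 for Lif (adjusted p = 0.939) and 0.33 ± 0.43 for Il11 (adjusted p = 1). The limit of 3 counts covers counting error only, because amplified reads were not collapsed to molecules.

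Osmr (ENSMUSG00000022146, chr15:6813577-6874969, − strand) encodes the receptor chain for oncostatin M, which pairs with gp130. It was at 18.9, 30.9, 18.4 and 58.0 CPM in the empty_ctrl libraries of replicates 3, 4, 5 and 6 and at 71.1, 59.4, 37.4 and 78.6 CPM in the empty_iso libraries. In sgRNA cells it was at 14.8, 23.9, 17.4 and 37.6 CPM unstimulated and at 42.4, 49.6, 31.1 and 61.4 CPM stimulated. Again the stimulated library was higher in 8 of 8 pairs, but the groups overlapped in both plasmid arms. In each arm the unstimulated library of replicate 6 lay above the stimulated library of replicate 5.

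The averaged rise of Osmr was 0.97 ± 0.26 on the log2 scale (1.96-fold, adjusted p = 0.043), and 1.04 ± 0.13 with the replicate block (2.05-fold, adjusted p = 2.7e-05). Without the block the call was lost in 15 of 20 fits that left out 1 library or 1 replicate number, with the smallest estimate of 0.78 and the largest adjusted p of 0.347 when replicate 3 was left out. It was kept without replicate 6 (1.2, adjusted p = 0.0065), without the replicate 6 library of empty_ctrl or of sgRNA_ctrl, and without the replicate 5 library of empty_iso or of sgRNA_iso. With the block it was kept in all 20 (adjusted p between 9.41e-06 and 0.000922). Osm, the gene of its ligand, was listed at 0 in 15 of 16 libraries and had 1 count in the remaining one, which was stimulated.

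The other receptor chains were not called. Il6ra, the IL-6 binding chain, had an isoproterenol effect of 0.17 ± 0.18 (adjusted p = 0.701), with 6 of 8 pairs going up. Il6st, which encodes gp130, had 0.11 ± 0.23 (adjusted p = 0.867), and with the block 0.11 ± 0.05 (adjusted p = 0.148). Lifr, the LIF receptor chain, had the effect closest to 0, at −0.02 ± 0.10 (95% interval −0.225 to 0.179, adjusted p = 0.94), and went up in 4 pairs and down in 4.

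Jak1 (chr4:101152367-101265282, − strand), the kinase bound to gp130, was between 56.9 and 74.2 CPM in empty_ctrl and between 65.1 and 82.9 CPM in empty_iso. In sgRNA cells it was between 58.0 and 66.3 CPM unstimulated and between 61.1 and 81.3 CPM stimulated. The groups overlapped, yet the stimulated library was higher in 8 of 8 pairs. The difference was 0.17 ± 0.08 on the log2 scale (1.13-fold, adjusted p = 0.271), and 0.17 ± 0.05 with the block (adjusted p = 0.0259). That blocked call was lost in 10 of 20 fits with a library or replicate number left out, with adjusted p values between 0.017 and 0.127. These were the fits without replicate 3, 5 or 6, without the replicate 3 or 5 library of empty_ctrl, the replicate 6 library of empty_iso, the replicate 3 or 6 library of sgRNA_ctrl and the replicate 5 or 6 library of sgRNA_iso. It was also lost without the low-count filter (adjusted p = 0.195) and when the ribosomal RNA share entered as a covariate (adjusted p = 0.052).

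Stat3 (chr11:100885098-100939540, − strand), the transcription factor of the route, did not pass the test. Its group means were 46.1 ± 7.19 (SD, n = 4) CPM in empty_ctrl, 50.2 ± 8.3 in empty_iso, 40.9 ± 3.74 in sgRNA_ctrl and 43.4 ± 5.26 in sgRNA_iso. The isoproterenol effect was 0.10 ± 0.10 (95% interval −0.1 to 0.306, adjusted p = 0.647), with 6 of 8 pairs higher. Socs3 (chr11:117966079-117970047, − strand), the feedback inhibitor that STAT3 induces, was at 5.73 ± 2.1 CPM in empty_ctrl, 6.18 ± 3.24 in empty_iso, 4.96 ± 1.68 in sgRNA_ctrl and 5.86 ± 1.5 in sgRNA_iso. Its effect was 0.19 ± 0.25 (95% interval −0.341 to 0.722, adjusted p = 0.769). All 4 groups of each gene overlapped.

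**Figure D2:**
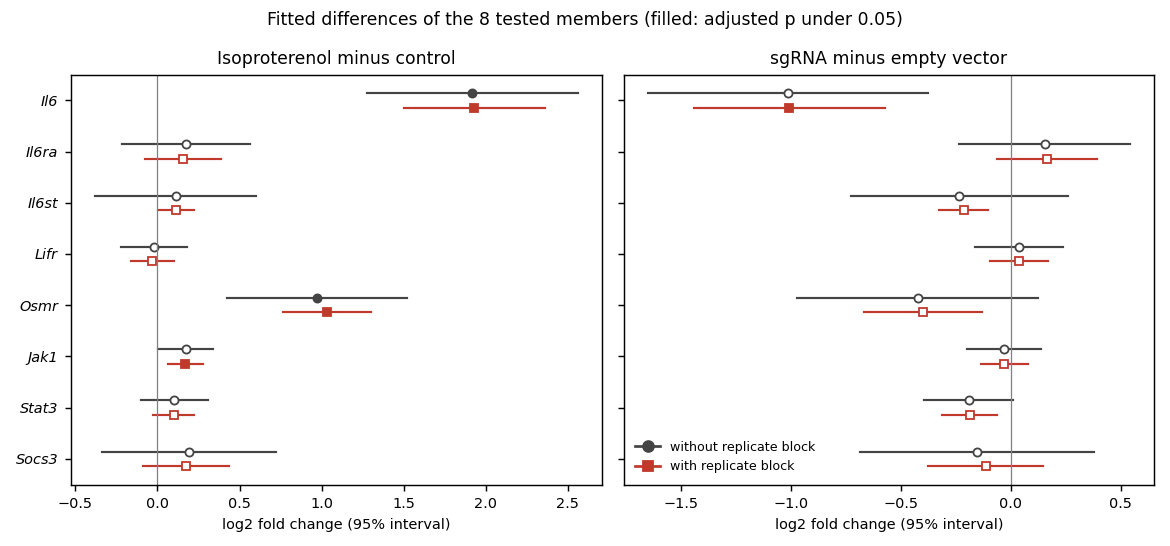
Log2 fold change (x axis) of the 8 tested genes (y axis) for isoproterenol minus control and for sgRNA minus empty vector, with 95% intervals, without (grey circles) and with (red squares) the replicate block. Filled symbols have an adjusted p under 0.05: Il6 and Osmr for isoproterenol in both fits, Jak1 for isoproterenol and Il6 for the sgRNA with the block only.

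The comparison of plasmids asked whether activation of Gm15551 moved the route. The control was an empty vector, and no group received a guide aimed elsewhere. The presence of guides and the activation of Gm15551 therefore cannot be told apart here. Without the replicate block 0% of the 13150 genes were called, and thus no member (437 genes had an unadjusted p under 0.05, and DESeq2 called 13 genes and no member). With the block 77 genes were called, or 0.586%, of which 0.137% of the tested genes were higher and 0.449% lower. Il6 was the only member among them, and it was lower.

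Il6 was lower in the sgRNA library in 7 of 8 pairs, the exception being the unstimulated pair of replicate 6 with 1.04 CPM in empty vector and 1.6 CPM in sgRNA cells. Among stimulated libraries the groups did not overlap, with 3.82 to 9.15 CPM in empty_iso and 1.12 to 3.46 CPM in sgRNA_iso. The averaged difference was −1.01 ± 0.30 (adjusted p = 1), and −1.01 ± 0.20 with the block (0.498-fold, adjusted p = 0.0371). Taken separately with the block, it was −1.36 ± 0.25 in stimulated cells (adjusted p = 0.0437) and −0.66 ± 0.33 in unstimulated cells (adjusted p = 0.86). The averaged blocked call was lost in 17 of 20 fits with a library or replicate number left out, with estimates between −1.26 and −0.80 and adjusted p values up to 0.226 (without replicate 3). It was kept only without the replicate 6 library of empty_ctrl or of sgRNA_ctrl or the replicate 4 library of sgRNA_iso. When the ribosomal RNA share was added to the block as a covariate, the difference was −1.10 ± 0.30 (adjusted p = 0.456). The part of that share in the result cannot be told apart from the plasmid's, since it was higher in every empty vector library of a pair.

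Osmr and Il6st were lower in the sgRNA library in 8 of 8 pairs without a call. The difference was −0.42 ± 0.26 for Osmr (adjusted p = 1) and −0.40 ± 0.13 with the block (adjusted p = 0.215). For Il6st it was −0.23 ± 0.23 (adjusted p = 1) and −0.21 ± 0.05 with the block (adjusted p = 0.097). Stat3 was lower in 6 of 8 pairs (−0.19 ± 0.10, adjusted p = 1, and adjusted p = 0.221 with the block). Lifr (0.04 ± 0.10), Jak1 (−0.03 ± 0.08), Il6ra (0.15 ± 0.18) and Socs3 (−0.15 ± 0.25) each had an adjusted p of 1.

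Whether the response to isoproterenol differed between plasmid arms was tested as an interaction. No gene was called (0% without and 0% with the block by edgeR, where 52 and 199 genes were below an unadjusted p of 0.05). DESeq2 called 0 genes without and 3 with the block, and neither Il6 nor Osmr was among them. For Il6 the response was 0.70 ± 0.60 smaller on the log2 scale in sgRNA cells, written as an interaction of −0.70 (95% interval −1.98 to 0.576, adjusted p = 1). For Osmr the interaction was 0.01 ± 0.51 (95% interval −1.07 to 1.09), and its sign depended on the libraries and the fit. Intervals of this width do not show that the arms responded alike.

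The members also differed by replicate number. When the 4 numbers were tested together, all 8 tested members were called, where the background was 54.7% of all genes. Il6st averaged 118 CPM in replicate 6 and 61, 54.7 and 65.4 CPM in replicates 3, 4 and 5, and the lowest replicate 6 library (97.3 CPM) lay above the highest of the others (80.8 CPM). Socs3 averaged 8.35 CPM in replicate 6 and 4.09, 6.26 and 4.03 CPM in replicates 3, 4 and 5. Osmr averaged 58.9 CPM in replicate 6 and 36.8, 41.0 and 26.1 CPM in the others, whereas Lifr was lowest there, at 17.0 CPM against 19.3, 17.8 and 21.8 CPM. Without replicate 6, 3 of the 8 members were called for the replicate number, where 3787 of 13030 tested genes were.

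The rest of the route was followed in 62 further genes, listed as other ligands, receptors, kinases and STATs, inhibitors and genes known as STAT3 targets, of which 49 were tested. Isoproterenol raised 5 of them and lowered 2, and with the block it raised 9 and lowered 5. Of all tested genes, 4.49% were called without the block (2.06% higher and 2.43% lower) and 21.3% with it (10.9% higher and 10.4% lower). The share of these 49 genes lay above the background without the block. With the block it lay above the background for rises and near it for falls. Whether these shares differ from the background was not tested. The lists were chosen with earlier results of these data known. Clcf1, a ligand of the same family that acts through the CNTF receptor, rose from 7.61 ± 1.79 to 17.5 ± 2.76 CPM with the empty vector and from 7.76 ± 2.83 to 16.1 ± 4.49 CPM with the guides (SD, n = 4). Neither pair of groups overlapped, since the unstimulated libraries reached at most 9.59 and 10.9 CPM and the stimulated ones started at 15.3 and 12.8 CPM. The rise was 1.12 ± 0.18 on the log2 scale (adjusted p = 0.00186, and 1.8e-06 with the block). It was 1 of 4 tested genes among the 8 other ligands, whose median effect was 0.0449, beside 0.00466 for all tested genes. Of 4 other receptors 1 was tested and not called (−0.21). Cntfr, the gene of the CNTF receptor, had 0 counts in all 4 libraries of every group.

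Among 13 other inhibitors, all tested, Socs2 and Cish were called, in opposite directions. Both encode SOCS box proteins that are known as feedback inhibitors of cytokine receptors signalling through STAT5. Socs2 rose from 15.8 ± 1.25 to 32.3 ± 5.04 CPM with the empty vector and from 16.5 ± 2.04 to 42.2 ± 11.8 CPM in sgRNA cells, by 1.19 ± 0.12 on the log2 scale (adjusted p = 1.57e-05). Cish fell from 3.61 ± 0.311 to 1.73 ± 0.458 CPM and from 3.35 ± 0.171 to 1.65 ± 0.537 CPM, by −1.04 ± 0.17 (adjusted p = 0.00215, lost at 0.0577 without replicate 3 and kept with the block). The median of the 13 was 0.05. Of 9 other kinases and STATs 8 were tested, and their median was 0.04.

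Of 28 genes known as STAT3 targets, 23 were tested, and isoproterenol raised 3 and lowered none, where 2.06% of all tested genes were called higher and 2.43% lower. With the block it raised 7 and lowered 3, where the background was 10.9% higher and 10.4% lower, with a median of 0.08 in either fit. Hpx, the haem-binding plasma protein hemopexin, rose by 1.35 ± 0.36 (adjusted p = 0.0426, and 0.000341 with the block). Without the block this call was lost in 15 of 20 fits with a library or replicate number left out (adjusted p up to 0.241 without replicate 3). It was kept without replicate 5, without the replicate 3 library of empty_ctrl, the replicate 5 or 6 library of empty_iso or the replicate 5 library of sgRNA_iso. Of the genes named after their values were seen, Pim1, a survival kinase, and Lrg1, a secreted glycoprotein, made up the other rises without the block. With it Timp1, Il4ra, Bcl6 and Vegfa were also higher, and Cp, Saa3 and Hp were lower.

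The plasmid comparison called none of the 49 other genes without the block and 6 with it, all lower and all in the list of STAT3 targets, where 0.449% of all tested genes were called lower. The list's median was −0.13 beside −0.01 for all tested genes. Saa3, an acute-phase serum amyloid A, fell by −1.67 ± 0.13 (adjusted p = 1.19e-05). Its level was 106 ± 31.1 CPM in empty_ctrl and 35.5 ± 9.25 CPM in sgRNA_ctrl, and 81.7 ± 47.3 CPM in empty_iso and 23.6 ± 13.1 CPM in sgRNA_iso. Hp, haptoglobin, fell by −1.41 ± 0.16 (adjusted p = 0.000475), and Serpina3n, a protease inhibitor of the acute phase, by −1.09 ± 0.15 (adjusted p = 0.00247). All of these were lower in sgRNA cells in 8 of 8 pairs. The ribosomal RNA share was also lower there in 8 of 8 pairs, so its part cannot be told apart from the plasmid's. With that share as a covariate beside the block, 15 of all tested genes were called for the plasmid in place of 77. Serpina3n ranged from 3.64 to 164 CPM over the 16 libraries, and its call was lost without replicate 4 (adjusted p = 0.0726) or replicate 6 (adjusted p = 0.0782). The remaining calls, named after their values were seen, were Lcn2, Cp and Timp1. Saa3, Hp and Lcn2 had been named by the study from these same libraries, so that their place in the list is not independent evidence of its direction. The whole list was chosen with earlier results of these data known, so its other calls and its median are not independent evidence either. The paper also states that other sgRNAs had changed these genes in further wt1-SAM datasets. It interprets their change as an artefact of the model.

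**Figure D3:**
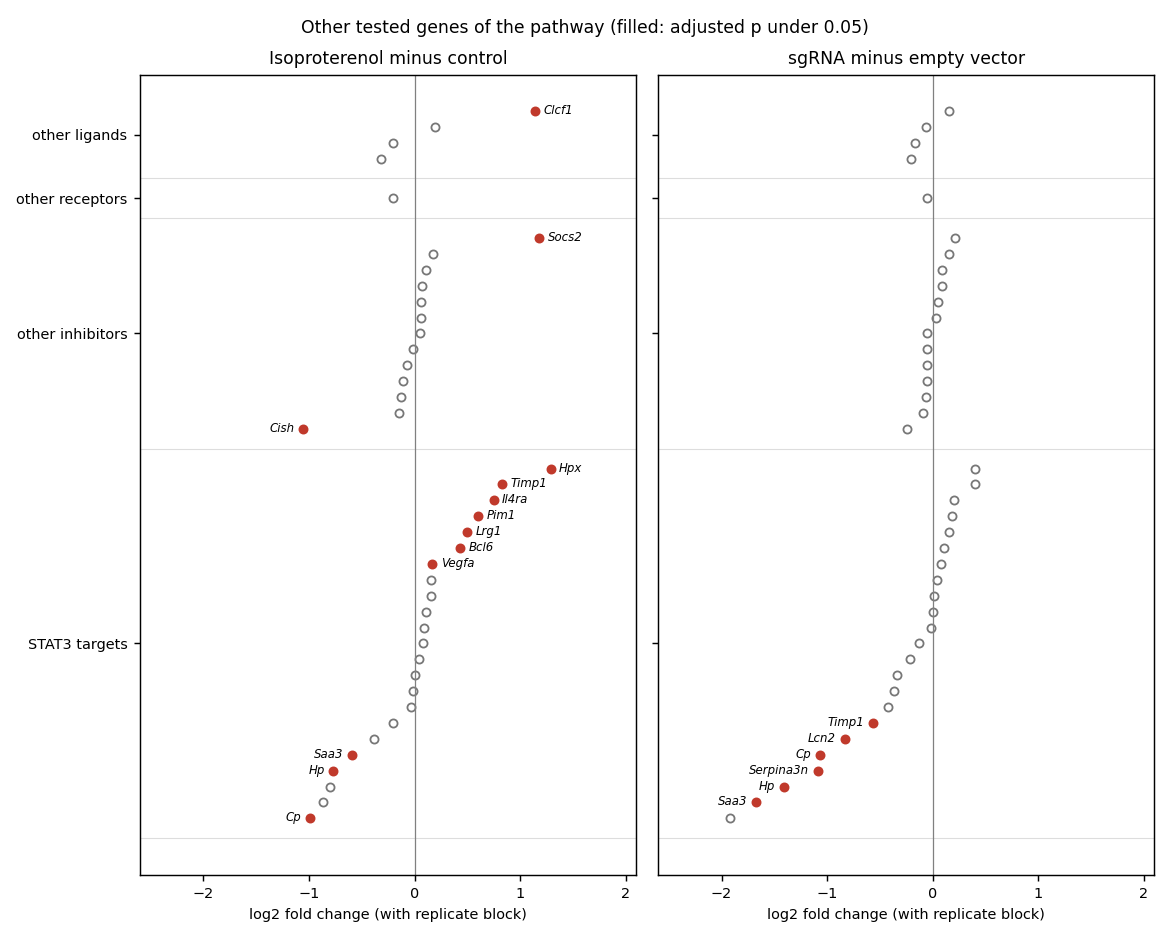
Log2 fold change with the replicate block (x axis) of the other tested ligands, receptors, inhibitors and STAT3 targets of the route, grouped by list (y axis, sorted within each list), for isoproterenol minus control and sgRNA minus empty vector. Filled red points have an adjusted p under 0.05 and carry the gene's name. Called genes for isoproterenol lie on both sides and in every list but the other receptors, and all called genes of the plasmid comparison lie on the lower side in the list of STAT3 targets.

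By the Pearson correlation of log2 CPM over the 16 libraries, the genes most like Il6 were Ptgs2 (0.916), Nqo1 (0.895) and Kdelr2 (0.88). Those most like Stat3 were Etv6 (0.921), Cep170b (0.912) and Traf7 (0.912), and among those most like Socs3 were Tinagl1 (0.904) and Fmnl3 (0.867). These values describe 16 libraries that share stimulus, plasmid and replicate number.

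In bulk RNA a larger number of cells of one type and more RNA per cell cannot be told apart. Of 8 leukocyte markers, the defining ones were at or near 0, with Adgre1 and Cd3e at 0 in 15 of 16 libraries and Ptprc at 0 in 12. Cd68, a lysosomal protein that fat cells also make, was the only one tested and rose with isoproterenol by 0.91 ± 0.17 (adjusted p = 0.00518). The summed leukocyte markers, nearly all Cd68, were 8.31 to 14.4 CPM in empty_ctrl and 14.5 to 22.6 CPM in empty_iso, and 6.44 to 14 CPM in sgRNA_ctrl and 13.7 to 22.4 CPM in sgRNA_iso. The 6 preadipocyte and fibroblast markers summed to 13.0 to 72.6 CPM in empty_ctrl, 19.7 to 94.3 CPM in empty_iso, 7.63 to 41.5 CPM in sgRNA_ctrl and 15.1 to 68.0 CPM in sgRNA_iso. Most of that was Ly6a. With the block it was called higher with isoproterenol (1.09 ± 0.11, adjusted p = 4.92e-06) and lower in sgRNA cells (−0.74 ± 0.11, adjusted p = 0.00491). Of the 6 markers 3 were tested, and Ly6a was the only 1 called with the block in either comparison. Without the block 0 were called. All 3 had a positive difference for isoproterenol, but in the plasmid comparison 1 of the 3 was positive and not called. Of the 10 adipocyte markers 9 were tested, and isoproterenol raised 2 (Ucp1 and Ppargc1a) and lowered 1 (Adipoq, by −1.06 ± 0.18, adjusted p = 0.00222). With the block it raised 4, adding Cidea and Elovl3, and lowered 3, adding Fabp4 and Plin1. In the plasmid comparison all 9 tested adipocyte markers had a positive difference in either fit. Their median with the block was 0.166, beside −0.00547 for all tested genes. Of these markers, 0 were called without the block and 1 was called higher with it. The 10 adipocyte markers summed to between 9020 and 21000 CPM. The part of such cells in the changes of Il6 and Osmr was not tested. The 4 endothelial markers summed to between 1.42 and 3.15 CPM, and the 1 tested was not called. The 4 mural markers summed to 4.73 to 34.6 CPM in empty_ctrl, 3.82 to 21.6 CPM in empty_iso, 5.17 to 32.1 CPM in sgRNA_ctrl and 4.02 to 20.6 CPM in sgRNA_iso. Of the 3 mural markers tested, none was called for isoproterenol without the block (median −0.61), and 2, Acta2 and Myh11, were lower with it (median −0.50, adjusted p = 0.0137 and 0.0417). Among the defining markers, Cdh5 was at 0 in 10 libraries, Kdr in 14 and Rgs5 in 14. The part of these cells in the isoproterenol results was likewise not tested.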

How the data were processed

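RNA, labelled as polyA, of 16 wt1-SAM cultures in 4 groups of 4 was sequenced in paired ends. According to the methods, cutadapt was used for quality filtering and salmon for quantification against GENCODE M22 transcripts, alone or joined with RNAcentral (GRCm38). The authors deposited estimated counts per gene as whole numbers, without normalization. Versions of these tools and the use of strand are not given in the sources used here, so exons shared with a gene on the opposite strand (Il6ra with 242 bases, Stat3 with 72, Jak1 with 4) could mix reads. Salmon divides reads that several transcripts share.

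Counts were tested in R 4.3.3 with edgeR 4.0.16. Genes were kept by filterByExpr (minimum count 10, total 15, 4 libraries), scaled by TMM, fitted with 4 group means (glmQLFit) and tested two-sided (glmQLFTest) with Benjamini-Hochberg adjustment over all 13150 genes, called at an adjusted p under 0.05. Contrasts were isoproterenol averaged over plasmids, plasmid averaged over treatments, their interaction and the replicate number. The first 3 share all 16 libraries. Libraries of the same replicate number deviated together from the group means (correlations of 0.224 to 0.613 in 24 pairs), so the numbers were taken to pair them. Between different numbers the median was −0.215. Centring on group means pulls that value down when same-number correlations are positive, so it is not separate evidence of pairing. A fit with the number as a block is given beside the first where it changes a call or a count. The test was checked on simulated counts into which only isoproterenol changes were planted, all larger than that of Jak1. No plasmid or interaction change was planted, so the check does not show how well such changes are found. Alternatives were DESeq2 1.42.0, its size factors, no filter, removal or covariate use of the ribosomal RNA gene, a fold bound and libraries left out. Fits that combine the block with another setting or with a single library left out were chosen after seeing the data.

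The members and lists were chosen with earlier results of these data known. Named were all members, Gm15551 and Ucp1, in each list of other genes the up to 4 called ones with the largest change, the 3 genes most correlated with Il6, Stat3 and Socs3 (log2 CPM, prior count 2), and marker lists by their sum. A few genes that this rule takes in are not reported here. Exon lengths came from GENCODE M21 and gene starts from RefSeq, where 10 of 10 members matched. Depth limits Lif, Il11 and Il6 most.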

Additional observations from a re-analysis of the deposited data

Results flagged for a closer look

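In 40 groups of 4 libraries (10 genes in 4 groups), 5 held a library whose distance to the nearest other one, divided by the group's range, was above Dixon's 95% critical value for 4 samples (0.829). At that value chance alone gives about 1 in 20 groups. Il6st in replicate 6 stood apart in empty_ctrl (134 CPM, the others between 55.2 and 63.9), in sgRNA_ctrl (97.3 CPM, the others between 52.1 and 56.5) and in sgRNA_iso (113 CPM, the others between 53.5 and 62.5). Il6ra in replicate 6 of sgRNA_ctrl was at 10.8 CPM, with the others between 8.53 and 8.82 CPM. Il6 in replicate 3 of empty_ctrl was at 2.29 CPM, with the others between 1.04 and 1.25 CPM.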

How the results depend on the processing

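The rise of Il6 with isoproterenol kept its direction and its call under every alternative run (1.73 to 2.12 on the log2 scale with libraries left out, adjusted p up to 0.0439). The number of members called for isoproterenol was 1 to 2 with libraries left out, since Osmr was lost in 15 of 20 fits. With the replicate block 1 member was called for the plasmid. Beside the block, 2 were called without the filter (Il6 and Osmr) and with DESeq2 (Il6 and Il6st), 0 when the ribosomal RNA share was a covariate, and 0 to 1 with libraries left out. All 8 tested members were called for the replicate number, and 3 to 8 with 1 number left out.

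Counts of called genes moved as well. For isoproterenol 590 became 2799 with the block, 973 with DESeq2, 349 with a log2 fold bound of 0.5, 749 with block and bound, 137 to 864 with libraries left out and 1782 to 3025 with these and the block. For the plasmid 0 became 77 with the block, 10 without the filter, 13 with DESeq2, 4 with the ribosomal RNA covariate and 0 to 2 with libraries left out. Beside the block it became 514 without the filter, 150 with DESeq2, 15 with the covariate, 35 with the bound and 21 to 90 with libraries left out. For the interaction 0 became 86 without the filter, 3 with DESeq2, 1 with the covariate and 0 to 1 with libraries left out, each beside the block. For the replicate number 7195 became 3787 to 7267.

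Differences of members that were not called changed sign in several fits. The Osmr interaction was −0.047 with the block, −0.0063 without the filter and −0.038 with the covariate, and ranged from −0.45 to 0.32 with libraries left out and from −0.25 to 0.19 with these and the block. The isoproterenol effect ranged from −0.042 to 0.30 for Il6st and from −0.089 to 0.025 for Lifr (−0.081 to 0.017 with the block). The sgRNA effect ranged from −0.00027 to 0.11 for Lifr, from −0.072 to 0.016 for Jak1 (−0.058 to 0.0073 with the block, and 0.0014 with the block and no filter) and from −0.27 to 0.0070 for Socs3 (−0.25 to 0.027 with the block). The cause of these changes was not tested. Depth limits Il6, Lif and Il11, which had at most 123, 6 and 10 counts per library.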
